A study of Homo sapiens with 12 samples.

Results

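The ligands of the epidermal growth factor (EGF) family and their ERBB receptors were followed in AsPC-1 cells, a human pancreatic cancer line, with and without knockdown of ARNT and with and without hypoxia. The 8 genes described are 5 ligand genes (EREG, AREG, HBEGF, TGFA and BTC) and 3 receptor genes (EGFR, ERBB2 and ERBB3). They were found by mapping the Ensembl gene IDs of the deposited count files to symbols, out of 57820 listed IDs, and all 8 passed the filter on low counts that left 16999 tested genes. There were 4 groups of 3 libraries, which differed in oxygen (normoxia, 21% O2, or hypoxia, 1% O2 for 24 h) and in siRNA (a scrambled siControl, or siARNT). All 12 cultures went through transfection by lipid reagent, were split the day after, and gave their RNA 48 h after transfection. The labels speak of wells in triplicate of 1 line and of nothing more, so p-values measure the spread between these samples, which may be technical.

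The EGF family ligands are made as membrane-bound precursors and are released by metalloproteases such as ADAM17 and ADAM10. TGFA, AREG and EREG bind EGFR, and HBEGF, BTC and EREG also bind ERBB4. ERBB2 has no known ligand of its own and pairs with the other receptors, and ERBB3, a receptor for neuregulins with little kinase activity, signals through its partners to PI3K. EGFR pairs feed the ERK pathway. ARNT (HIF1B) pairs with HIF1A or EPAS1 to activate genes of the hypoxia response.

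The libraries matched their labels. ARNT was at 62.4 ± 1.53 CPM (gene counts scaled to library size, mean ± SD, n = 3) in normoxia siControl and at 13.4 ± 0.560 CPM in normoxia siARNT, and at 69.1 ± 3.81 and 15.3 ± 1.04 CPM in the siControl and siARNT groups of hypoxia. The hypoxia markers CA9, EGLN3 and NDRG1 rose with hypoxia in siControl by 3.27, 3.29 and 3.09 on the log2 scale. In siARNT they were at 22.4 ± 5.46, 12.3 ± 0.818 and 117.5 ± 17.3 CPM in normoxia. In hypoxia siARNT they were at 26.5 ± 4.07, 20.1 ± 1.97 and 201.1 ± 23.1 CPM in the same order. CA9 was at 12.0 ± 0.739 CPM in normoxia siControl, under its level in normoxia siARNT. Gene counts totalled 38.53 to 84.34 M per library. The 6 epithelial markers were all detected and summed to 3704.5 to 8089.1 CPM, with group means of 3881.9 (normoxia siControl), 6189.4 (normoxia siARNT), 4184.5 (hypoxia siControl) and 4865.0 CPM (hypoxia siARNT). The part of this difference in the results on siARNT was not tested. The fibroblast, endothelial (2 genes found), acinar and endocrine markers each summed to at most 0.966 CPM in a library, and CD3E, INS and CHGA were at 0. Of the 4 leukocyte markers, 3 were under 1 CPM on average and LYZ carried the sum of 129.9 to 229.5 CPM.

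Knockdown of ARNT was accompanied by lower RNA of 2 receptors and 2 ligands in both oxygen states, while hypoxia was accompanied by higher RNA of EGFR and ERBB3. Genes were called by edgeR's quasi-likelihood test where the Benjamini-Hochberg adjusted p, over all tested genes, lay under 0.05. With siARNT in normoxia 4 of the 8 genes were called and fell (TGFA, EREG, EGFR and ERBB3), where 20.2% of all tested genes were called (9.42% higher and 10.8% lower). With the replicate letter as a block, 6 of 8 were called, the same 4 lower and ERBB2 and the gene count of AREG higher. Of all tested genes 4732 were then called in place of 3431. Whether the letters pair these libraries is not settled. With siARNT in hypoxia 5 of 8 were called, where 29.1% of all genes were (14.4% higher and 14.7% lower): TGFA, EREG, EGFR and ERBB3 fell and HBEGF rose. With hypoxia in siControl 2 of 8 were called (EGFR and ERBB3, both higher) beside 25.3% of all genes (10.4% higher and 14.9% lower), a share near the background. With hypoxia in siARNT 1 of 8 was called (EGFR, higher) beside 4.09% of all genes (2.21% higher and 1.89% lower). The interaction compares both hypoxia changes (siARNT less siControl) and was called for 1 of 8 (EGFR, below 0) beside 4.69% of all genes (2.49% above and 2.19% below 0). The median log2 fold change of the 8 genes was -0.44 with siARNT in normoxia and -0.50 with siARNT in hypoxia, beside 0.01 and 0.02 for all tested genes. Comparisons that share a group, such as the siARNT and hypoxia comparisons that share hypoxia siControl, are not independent of each other. In bulk RNA, fewer cells with a transcript and less of it per cell cannot be told apart.

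**Figure D1:**
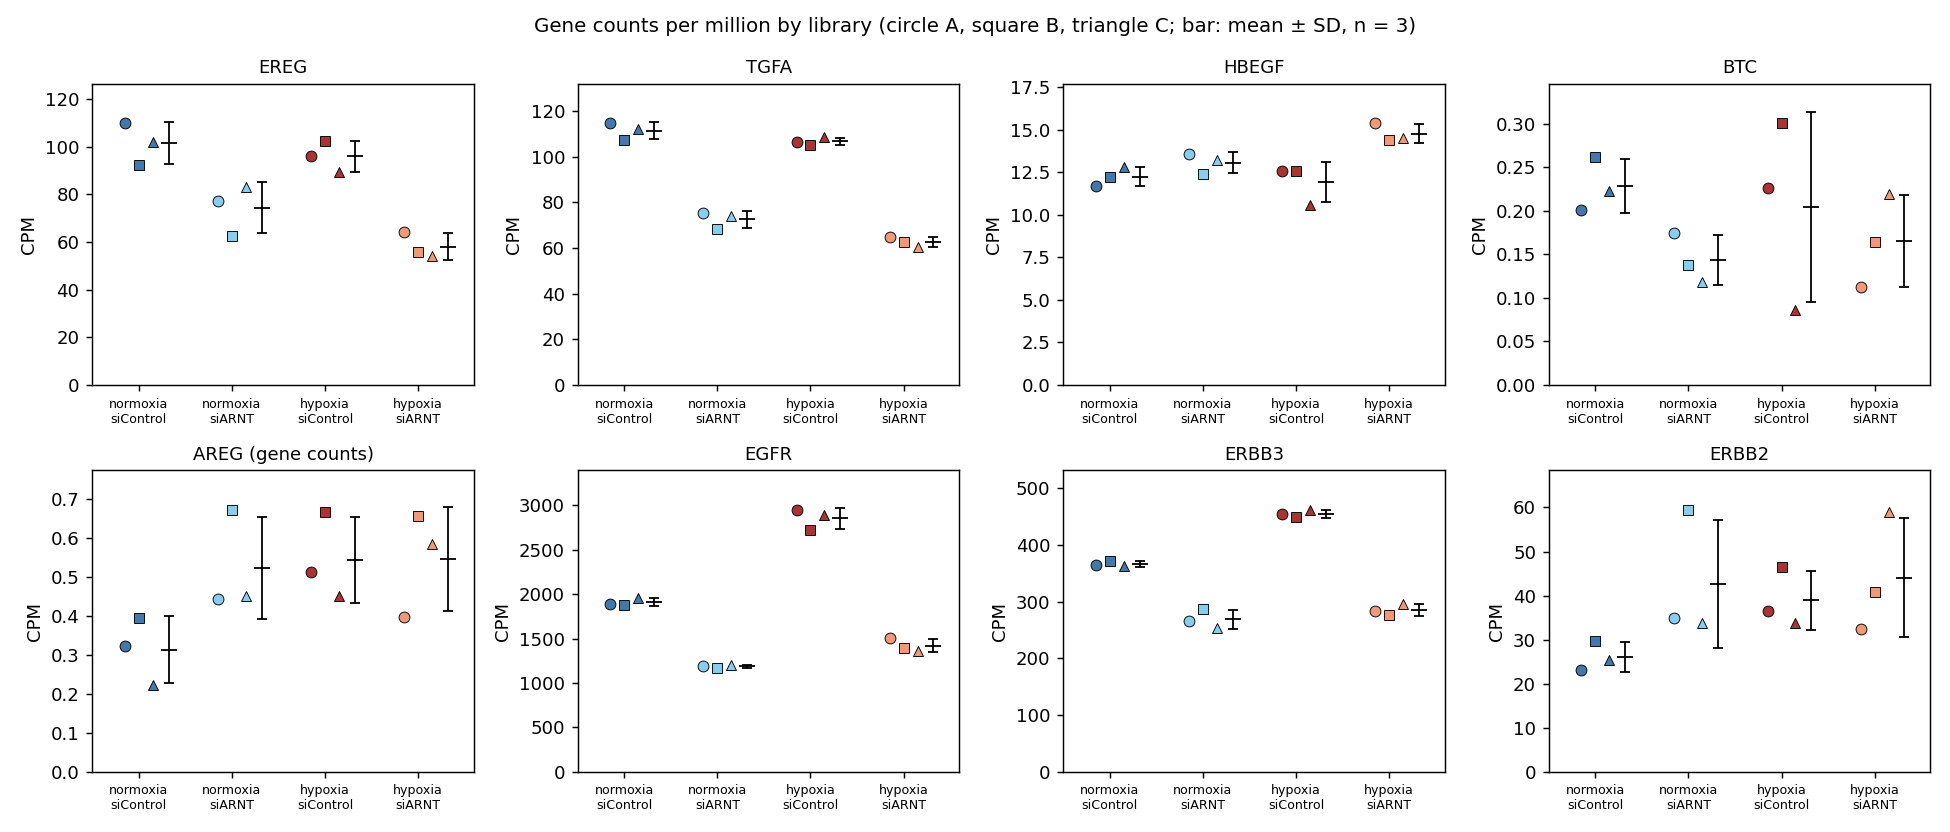
Levels in CPM (y axes, from 0, each gene on its own scale) of the 8 genes in the 12 libraries by group; points are libraries A, B and C and the bars to the right of each group are mean ± SD (n = 3). EGFR and ERBB3 are highest in the 3 hypoxia siControl libraries, TGFA and EREG are lower in the siARNT libraries of both oxygen states, and AREG and BTC rest on few counts.

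EGFR (ENSG00000146648.11, on chromosome 7), the receptor of TGFA, AREG and the other ligands, had the highest level of the 8 genes. Its level was 1888.7, 1876.7 and 1961.7 CPM in normoxia siControl replicates A, B and C, and 1196.1, 1171.9 and 1201.2 CPM in normoxia siARNT. In hypoxia it was 2951.1, 2718.3 and 2890.4 CPM in siControl, and 1502.4, 1399.4 and 1359.6 CPM in siARNT. No group overlapped another, and the 3 hypoxia siARNT libraries lay under all 3 normoxia siControl libraries. EGFR rose with hypoxia in siControl by 0.58 on the log2 scale (SE 0.055, adjusted p = 2.26e-05), a change of 49.5%. With siARNT it fell in normoxia by 37.7% (log2 fold change -0.68, adjusted p = 1.14e-05, SE 0.055). In hypoxia EGFR fell by 50.2% with siARNT (log2 fold change -1.01, adjusted p = 2.16e-07, SE 0.055). With hypoxia in siARNT the rise was 0.26 (SE 0.055, adjusted p = 0.0295). The test of the difference between both hypoxia changes gave -0.32 on the log2 scale (SE 0.078, 95% interval -0.49 to -0.15, adjusted p = 0.0381). The calls of the rise in siARNT and of this difference were both close to the threshold. The first was lost in 10 of 20 alternatives (adjusted p up to 0.191) and the second in 12 of 19 (adjusted p up to 0.156). By EGFR reads over splice junctions the rise in siARNT was 0.14 (95% interval -0.09 to 0.37, adjusted p = 0.486) and the difference -0.47 (adjusted p = 0.102), neither called, whereas the change in siControl was 0.61 and called (adjusted p = 0.00139). Leaving out single libraries moved the log2 values only between 0.24 and 0.28 and between -0.36 and -0.28.

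ERBB3 (ENSG00000065361.10, chromosome 12), the neuregulin receptor that signals to PI3K, followed EGFR at a lower level. It was at 363.9, 371.4 and 362.7 CPM in normoxia siControl and at 265.5, 287.1 and 254.0 CPM in normoxia siARNT. It was at 453.6, 448.2 and 461.8 CPM in hypoxia siControl and at 282.8, 276.1 and 296.4 CPM in hypoxia siARNT. The siControl groups overlapped no other group, whereas the siARNT groups of normoxia and hypoxia overlapped each other. ERBB3 rose with hypoxia in siControl (log2 fold change 0.31, SE 0.056, adjusted p = 0.00159) and fell with siARNT in normoxia (-0.44, adjusted p = 0.000294) and in hypoxia (-0.67, adjusted p = 4.29e-06). In siARNT the hypoxia change was 0.08 (95% interval -0.04 to 0.21, adjusted p = 0.416), and the interaction was -0.23 (adjusted p = 0.127). With a correction of each library for the GC content of genes these last 2 values were 0.16 and -0.19 and were called (adjusted p = 0.00414 and 0.0114).

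ERBB2 (ENSG00000141736.9, chromosome 17), the receptor that pairs with the others without a ligand of its own, was the lowest of the 3 receptors and, relative to its mean, varied more between replicates in every group than EGFR and ERBB3. It was at 23.2, 29.8 and 25.3 CPM in normoxia siControl replicates A, B and C, and at 34.9, 59.5 and 33.8 CPM in normoxia siARNT. It was at 36.5, 46.4 and 33.8 CPM in hypoxia siControl and at 32.4, 40.8 and 58.9 CPM in hypoxia siARNT. Normoxia siControl lay under all the other libraries, and the other 3 groups overlapped. By gene counts in the fit to all 12 libraries ERBB2 was not called in any of the 5 comparisons, with log2 fold changes of 0.58 for hypoxia in siControl (95% interval 0.03 to 1.13, adjusted p = 0.120) and 0.71 for siARNT in normoxia (0.16 to 1.26, adjusted p = 0.0647). With the replicate letter as a block the siARNT value in normoxia was 0.69 and was called (adjusted p = 0.0354), as it was with DESeq2. It was called in 7 of 19 alternatives on gene counts, and was not called by junction reads (0.41, adjusted p = 0.0746). The hypoxia change in siControl was called in 4 of 20 alternatives on gene counts, and not with the letter as a block. Its calls included a fit to the 6 libraries compared (0.57, adjusted p = 0.00679) and a fit without normoxia siARNT B (0.57, adjusted p = 0.0333). By junction reads this hypoxia change was called too (0.52, adjusted p = 0.0253).

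The ERBB2 level moved with the GC content of the libraries. Its exons are 59.5% GC, which is the 86.4th percentile of tested genes, and EGFR and ERBB3 are at 51.2% and 52.0%. The slope of log2 CPM on GC content, taken over tested genes of at least 5 CPM on average and relative to the mean library, was highest in normoxia siARNT B (0.447 per 10% GC) and hypoxia siARNT C (0.253), the same libraries that had the highest ERBB2 values. It was lowest in normoxia siControl A (-0.223), which had the lowest. With the GC correction the ERBB2 changes were 0.42 for hypoxia in siControl (adjusted p = 4.59e-05), 0.26 for hypoxia in siARNT (adjusted p = 0.00766) and 0.25 for siARNT in normoxia (adjusted p = 0.00686), so the size of the siARNT value depended on the correction. The part of GC content in the uncorrected ERBB2 values was not tested beyond this. The corrected values of EGFR were 0.63, 0.31 and -0.72 in the same comparisons.

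**Figure D2:**
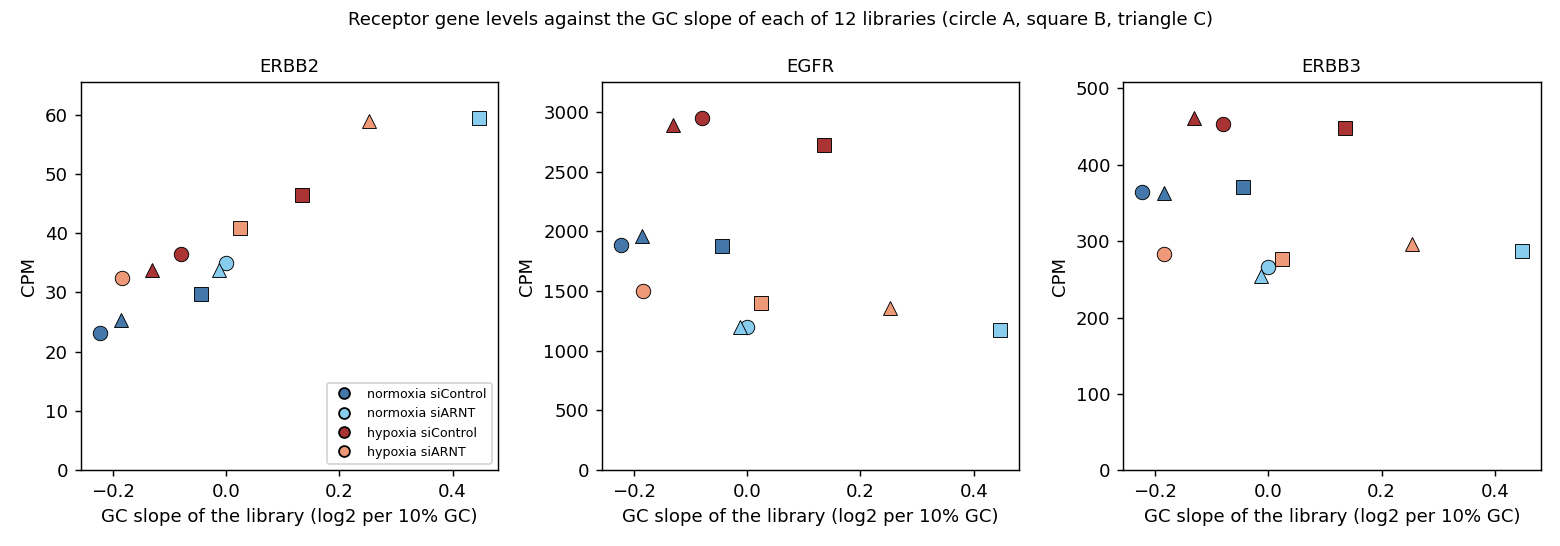
Levels of ERBB2, EGFR and ERBB3 in CPM (y axes, from 0) against the slope of log2 CPM on GC content (x axes, log2 per 10% GC) in the 12 libraries, with colours for groups and shapes for replicates. ERBB2 is lowest at the slope of -0.223 and near 59 CPM in the 2 libraries with slopes of 0.253 and 0.447, while EGFR separates by group and the ERBB3 siControl groups lie apart from each other and above both siARNT groups, which overlap.

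TGFA (ENSG00000163235.11, chromosome 2), which encodes TGF-alpha, a ligand of EGFR, had the highest gene count per length of the ligand genes, with AREG left out because its gene count does not hold its junction reads. It was at 114.8, 107.4 and 112.1 CPM in normoxia siControl, and at 75.2, 68.5 and 73.9 CPM in normoxia siARNT. It was at 106.4, 105.2 and 108.5 CPM in hypoxia siControl and at 64.8, 62.7 and 60.5 CPM in hypoxia siARNT. The siARNT libraries lay under all siControl libraries, and the 2 siControl groups overlapped. With siARNT, TGFA fell in normoxia by 34.9% (log2 fold change -0.62, adjusted p = 2.47e-05, SE 0.055). It fell in hypoxia by 41.2% (-0.77, adjusted p = 1.60e-06, SE 0.055), and the call held in all 19 alternatives on gene counts of each comparison. By its few junction reads neither fall was called. The hypoxia change was -0.06 in siControl (95% interval -0.18 to 0.06) and -0.21 in siARNT (adjusted p = 0.0548).

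EREG (ENSG00000124882.3, chromosome 4), which encodes epiregulin, a ligand of EGFR and ERBB4, was close to TGFA in gene count. It was at 110.0, 92.4 and 101.8 CPM in normoxia siControl and at 77.4, 62.7 and 83.3 CPM in normoxia siARNT. In hypoxia it was at 96.2, 102.5 and 89.3 CPM in siControl and at 64.4, 56.0 and 54.0 CPM in siARNT. The siARNT libraries lay under all siControl libraries here too. With siARNT, EREG fell in normoxia by 26.6% (log2 fold change -0.45, adjusted p = 0.0157, SE 0.11). It fell in hypoxia by 39.4% (-0.72, adjusted p = 0.000430, SE 0.11). The first call was lost without normoxia siControl A or without normoxia siControl C (adjusted p up to 0.0653). The hypoxia change was -0.08 in siControl (adjusted p = 0.646) and -0.36 in siARNT (95% interval -0.60 to -0.12, adjusted p = 0.0882), and the GC correction brought the second past the threshold at the same size (adjusted p = 0.000815). The interaction was -0.28 (adjusted p = 0.327), and with the GC correction it was -0.38 and past the threshold (adjusted p = 0.00625).

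AREG (ENSG00000109321.6, chromosome 4) encodes amphiregulin, a ligand of EGFR, and its 2 readings in the deposited files differed by far. The gene files counted 24, 18 and 12 reads in normoxia siControl and 38, 39 and 23 in normoxia siARNT. They counted 34, 31 and 21 reads in hypoxia siControl and 21, 28 and 24 in hypoxia siARNT. The deposited splicing files hold reads across 5 AREG splice junctions, and these summed to 2970, 1635 and 2194 reads in normoxia siControl, and to 2409, 1379 and 1310 in normoxia siARNT. They summed to 2562, 1611 and 1862 reads in hypoxia siControl and to 1650, 1030 and 875 in hypoxia siARNT. The junction sum was therefore 35.4 to 182.8 times the count of the whole gene in the same library. Among 7594 genes with a junction of at least 20 reads on average, 3.41% had a junction with more reads than the gene count, the median ratio of the best junction to the gene count was 0.0668, and the AREG ratio was 25.3.

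A second gene ID (ENSG00000205595.3), which the name tables used here pair with no symbol, held nearly the same reads. Over 3 junctions, paired in their order along both genes, AREG had 14195 reads and the second ID 14173 in all 12 libraries, with a difference of at most 4 reads in any library. The gene files counted 0 to 6 reads for it. Reads that were not unique made up 14.45 to 15.14% of each library and were not counted to genes, and the name table of RefSeq lists AREGB as another name of AREG. The part of reads with more than 1 position in the low AREG count was not tested. The junction with the most reads, between 2 exons of 153 and 112 bases, is shown as the largest of the 5 that are summed in the AREG reading that follows. Its sequence is given from the GENCODE 29 transcript (GRCh38, plus strand), with the last 30 bases of the exon at chr4:74450380-74450532 in lower case and the first 30 bases of the exon at chr4:74452544-74452655 in capitals, all coding.
AREG exon 4 to exon 5: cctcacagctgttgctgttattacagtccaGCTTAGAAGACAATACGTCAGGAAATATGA

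By junction reads, AREG was lower with siARNT and did not differ beyond its spread with hypoxia. The junction sums, in reads scaled to the TMM-adjusted library size of the gene counts (RPM), were 39.9, 35.8 and 40.7 RPM in normoxia siControl and 28.2, 23.8 and 25.7 RPM in normoxia siARNT. They were 38.7, 34.6 and 40.0 RPM in hypoxia siControl and 31.2, 24.1 and 21.3 RPM in hypoxia siARNT. All siARNT libraries lay under all siControl libraries, whereas normoxia and hypoxia overlapped within each siRNA. Added as 1 more row to the same edgeR fit, a step chosen after the data were seen, the junction sum fell with siARNT in normoxia (log2 fold change -0.58, adjusted p = 0.00785, SE 0.12). In hypoxia it fell too (log2 fold change -0.56, SE 0.13, adjusted p = 0.00535). It stayed called in all 15 alternatives of each, with log2 values from -0.65 to -0.45 and from -0.73 to -0.45. The hypoxia changes were -0.04 in siControl (95% interval -0.31 to 0.23) and -0.02 in siARNT (-0.29 to 0.26). The gene counts instead gave 0.74 for siARNT in normoxia (adjusted p = 0.0823, and 0.0406 with the letter as a block), 0.80 for hypoxia in siControl (adjusted p = 0.0647, and 0.0278 with the block) and 0 for siARNT in hypoxia.

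**Figure D3:**
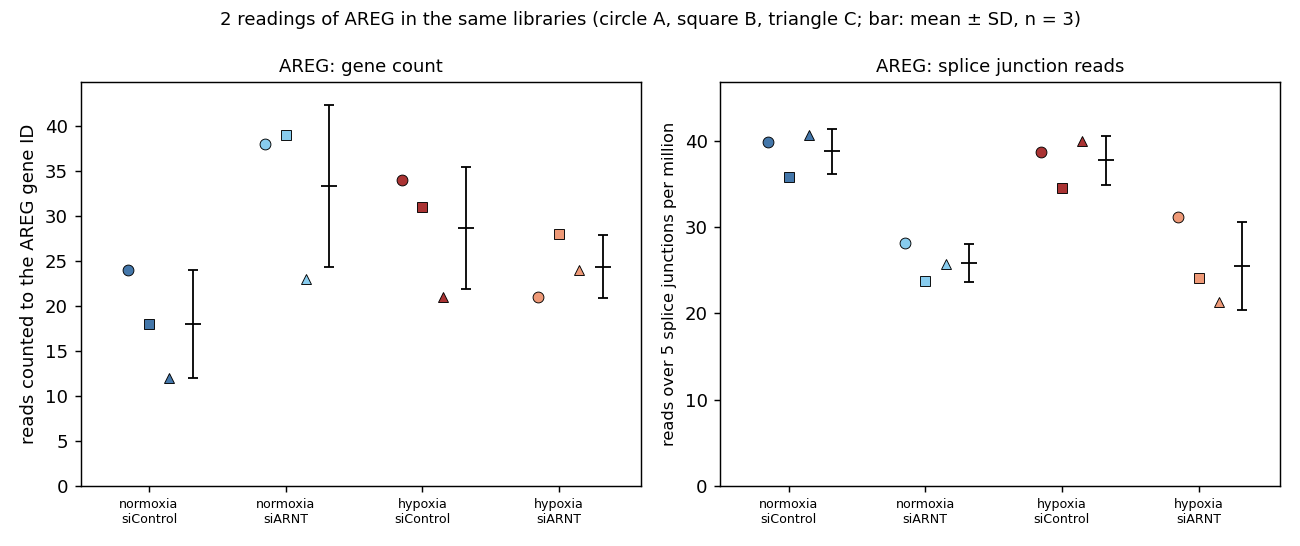
AREG in the 12 libraries by group, as reads counted to the gene ID (left, y axis from 0) and as the sum over 5 splice junctions in RPM (right, y axis from 0), with mean ± SD (n = 3) beside each group. The gene counts lie between 12 and 39 reads and overlap between all groups as raw reads, and the junction reads of the siARNT libraries all lie under those of the siControl libraries.

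Junction sums followed gene counts in other well covered genes, chosen by limits that AREG itself, with its ratio of 25.3, did not meet. These were 3492 genes with a mean junction sum of at least 500 reads and a best junction under 0.5 of the gene count. Genes whose readings conflict as in AREG were thus left out, and the check does not cover them. The log2 fold changes of both readings differed by a median of 0.0629 in size for siARNT in normoxia. Of these genes, 0.687% differed by more than 0.5. For siARNT in hypoxia the median was 0.0530 and the share 0.115%. Among the members, junction sums of ERBB3 gave -0.38 and -0.68 for siARNT in normoxia and hypoxia where gene counts gave -0.44 and -0.67, and those of EGFR gave -0.48 and -0.95 where gene counts gave -0.68 and -1.01. TGFA had only 51 to 148 junction reads per library. Its junction value in normoxia was 0.22 (95% interval -0.37 to 0.81), an interval that does not include the -0.62 of gene counts. In hypoxia its junction value was -0.45 where gene counts gave -0.77, and the call was lost (adjusted p = 0.264). Junction sums of EREG, over 2 junctions with 109 to 375 reads, gave -0.56 (adjusted p = 0.0171) in normoxia and -0.32 in hypoxia, where the call was lost (adjusted p = 0.120). Reads over a single junction do not grow with gene length: the best listed junction had 14.0 ± 1.57 RPM for AREG in normoxia siControl, 10.5 ± 0.306 for ERBB3, 28.7 ± 2.72 for EGFR, 4.57 ± 0.628 for EREG, 2.79 ± 0.138 for ERBB2 and 0.603 ± 0.0111 for TGFA (mean ± SD, n = 3). On that scale AREG lay between EGFR and ERBB3 and above EREG and TGFA, and TGFA lay under EREG, unlike in gene counts. Only junctions of listed splice events were available, so better covered junctions of a gene may be missing. The order is therefore of listed junctions and not of gene levels.

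HBEGF (ENSG00000113070.6, chromosome 5), a heparin-binding ligand of EGFR and ERBB4, was low, and of the 8 gene counts it was the 1 called higher with siARNT in hypoxia. It was at 11.7, 12.2 and 12.8 CPM in normoxia siControl and 13.6, 12.4 and 13.2 CPM in normoxia siARNT, which overlapped. In hypoxia it was at 12.6, 12.6 and 10.6 CPM in siControl and at 15.4, 14.4 and 14.5 CPM in siARNT, which did not overlap. HBEGF rose with siARNT in hypoxia by 0.31 on the log2 scale (SE 0.089, adjusted p = 0.0221). The call was lost without hypoxia siControl C or without hypoxia siARNT A (adjusted p up to 0.0959), without a filter on low counts (0.111) and in a fit to the 6 libraries compared (0.0505). The other 3 changes between groups were -0.03, 0.18 and 0.10 and were not called. BTC (ENSG00000174808.7, chromosome 4), which encodes betacellulin, had 4 to 15 counts per library, and its 95% intervals, such as -1.45 to 0.24 for siARNT in normoxia, allow changes larger than those of the other ligands.

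**Figure D4:**
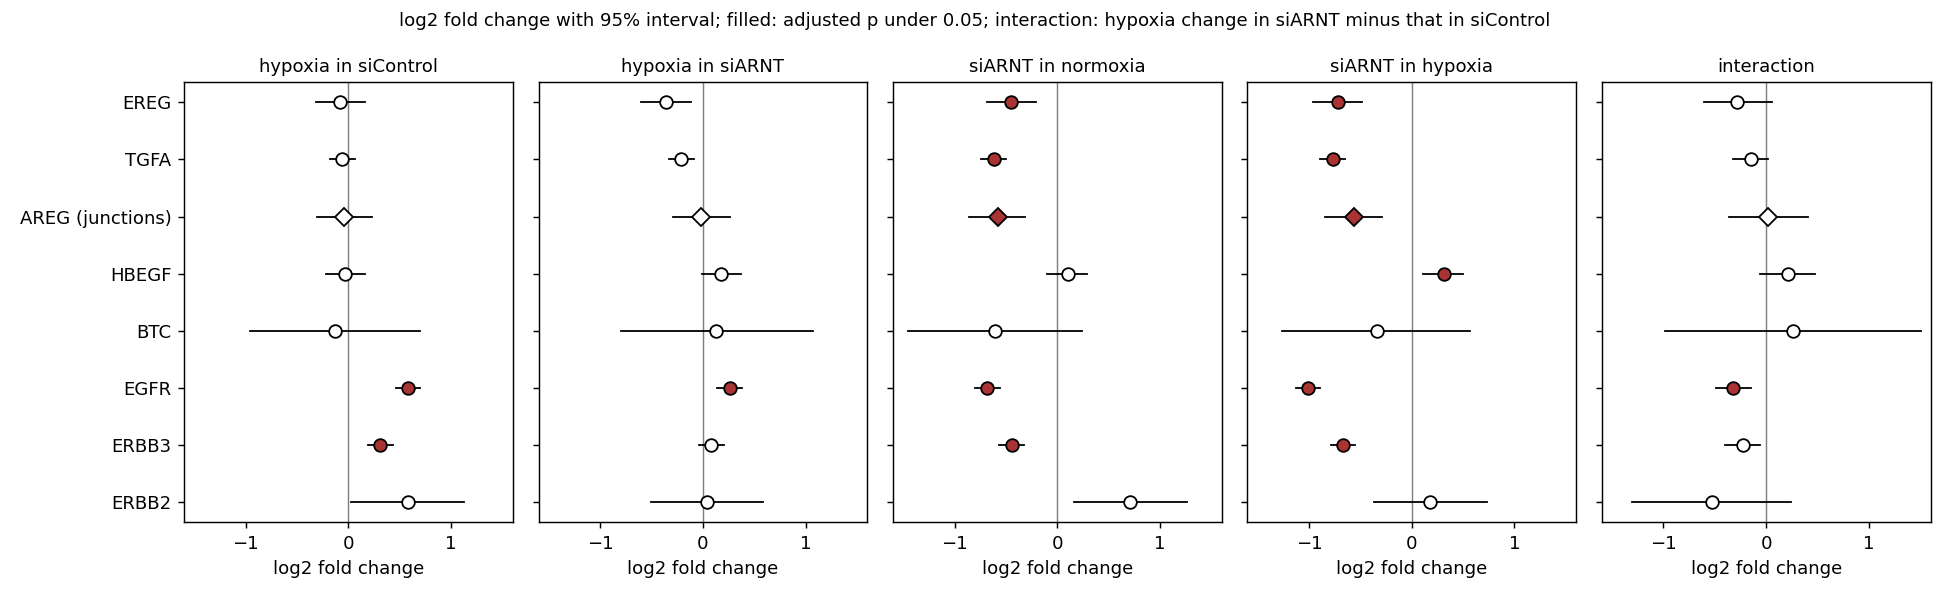
log2 fold changes (x axes) with 95% intervals of the 8 genes in the 5 comparisons, from gene counts except for AREG, which is shown by junction reads (diamonds); filled symbols have an adjusted p under 0.05. TGFA, EREG, AREG, EGFR and ERBB3 lie to the left of 0 with siARNT in both oxygen states, and EGFR lies furthest left in hypoxia, at -1.01.

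Per length, as CPM per kilobase of exon (RPKM), the order in normoxia siControl was EGFR (152.5 ± 3.67), ERBB3 (40.5 ± 0.520), TGFA (22.5 ± 0.756), EREG (17.7 ± 1.54), HBEGF (4.04 ± 0.180), ERBB2 (2.53 ± 0.326) and BTC (0.0813 ± 0.0110), each as mean ± SD with n = 3. AREG is left out of this order because its gene count does not hold its junction reads. The neighbours TGFA and EREG did not differ beyond their spread in normoxia siARNT (14.6 ± 0.712 and 13.0 ± 1.86 RPKM). HBEGF and ERBB2 did not in the other 3 groups, for instance in hypoxia siARNT (4.90 ± 0.192 and 4.27 ± 1.31 RPKM).

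The members whose levels moved most alike over the 12 libraries were EGFR and ERBB3 (Pearson's r of log2 CPM 0.98) and EREG and TGFA (0.94), given as descriptions over libraries that share groups. Of 9854 other genes whose mean reached 5 CPM, the closest to EGFR were KDM5B (0.995) and PITPNC1 (0.990), and the closest to ERBB3 were PXDC1 and VIPR1 (both 0.990). TGFA was closest to CFL2 and UGT1A10 (both 0.994), and EREG to LYZ (0.977) and ZSCAN31 (0.976). LYZ is also the gene that carries the summed leukocyte markers, which averaged 218.5 CPM in normoxia siControl and 177.9 CPM with siARNT, and 204.4 and 144.7 CPM in the same order in hypoxia. CD3E was at 0 in all libraries, and the part of leukocyte markers in the EREG result was not tested. HBEGF was closest to CEP19 (0.894) and IRF2 (0.884), and ERBB2 to LENG8 (0.992) and TBC1D17 (0.991). BTC and the gene count of AREG, which rest on few reads, were closest to TSPYL4 (0.724) and SPECC1L (0.716), and to MATCAP1 (0.944) and RGL2 (0.940).

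Of 7 other genes of the family, NRG4, a neuregulin that binds ERBB4, was the only one to pass the filter on low counts. It was at 17.4 ± 0.940 and 11.2 ± 0.152 CPM in normoxia siControl and siARNT and at 18.8 ± 1.28 and 10.5 ± 0.496 CPM in hypoxia, and it fell with siARNT in normoxia (-0.63, adjusted p = 0.000316) and in hypoxia (-0.84, adjusted p = 1.33e-05). ERBB4 had at most 2 counts in any library, EGF 5, EPGN 4, NRG1 23, NRG2 7 and NRG3 2. RNA of ERBB4, the second receptor of EREG, HBEGF and BTC, was thus not detectable beyond these counts.

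Of 10 genes that release the ligands or regulate their release, 9 were tested (TIMP3, an inhibitor of metalloproteases, had at most 1 count). The called counts were 1 with hypoxia in siControl and 0 with hypoxia in siARNT, then 2 with siARNT in normoxia and 2 in hypoxia, and 1 for the interaction. The share of 22.2% with siARNT in normoxia lay near the 20.2% of all tested genes, and the same share in hypoxia lay under their 29.1%. With hypoxia in siControl the share was 11.1% beside 25.3% of all tested genes, and for the interaction 11.1% beside 4.69%. With hypoxia in siARNT 4.09% of all tested genes were called. ADAM9, a metalloprotease, fell with siARNT from 954.4 ± 33.9 to 705.3 ± 75.1 CPM in normoxia (-0.44, adjusted p = 0.00355, and -0.29 with the GC correction) and from 1018.0 ± 14.3 to 707.6 ± 58.1 CPM in hypoxia (-0.52, adjusted p = 0.000460). RHBDL2, a rhomboid protease, rose with hypoxia in siControl (0.73, adjusted p = 0.00568) and fell with siARNT in hypoxia (-1.38, adjusted p = 9.58e-05), at levels of 0.925 to 3.28 CPM. Its interaction was -1.04 (adjusted p = 0.0308), and this call was lost in 9 of 19 alternatives. ADAM15, another metalloprotease, rose with siARNT in normoxia (1.12, SE 0.33, adjusted p = 0.0355) to 41.8 to 88.6 CPM, but its value was 0.47 with the GC correction and the call was lost in 7 of 19 alternatives. ADAM17, the main sheddase of TGFA, AREG and EREG, was at 89.2 ± 5.52 CPM in normoxia siControl and at 92.1 ± 8.44 CPM in hypoxia siARNT. ADAM17 and ADAM10 passed the test in none of the 5 comparisons.

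Adaptors that couple the receptors to RAS and PI3K were called in 3, 0, 3, 3 and 0 of 10, with the comparisons in the order just given. In the 3 comparisons with calls, 3 of 10 lay near the 25.3%, 20.2% and 29.1% of all tested genes. GRB2, the adaptor that binds the phosphorylated receptors, rose with siARNT from 45.1 ± 0.872 to 71.0 ± 4.06 CPM in normoxia (0.65, adjusted p = 0.000103) and from 47.5 ± 3.42 to 68.6 ± 4.53 CPM in hypoxia (0.53, adjusted p = 0.000173). SOS1, the exchange factor that GRB2 brings to RAS, fell in both (-0.60, adjusted p = 0.00137, and -0.66, adjusted p = 0.000299). GAB2, a docking protein, rose in both (0.47 and 0.48, adjusted p = 0.0197 and 0.0110), the first being 0.30 with the GC correction and lost in 3 of 19 alternatives. With hypoxia in siControl GAB1, a related docking protein (0.57, adjusted p = 0.00209), SOS2 (0.35, adjusted p = 0.0333) and SOS1 (0.31, adjusted p = 0.0323) rose, the calls of both SOS genes being lost in 6 and 5 of 20 alternatives.

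Inhibitors of the receptors and genes of their turnover were called in 5, 2, 6, 7 and 1 of 14 (35.7%, 14.3%, 42.9%, 50.0% and 7.14%, beside 25.3%, 4.09%, 20.2%, 29.1% and 4.69% of all tested genes). ERRFI1 (MIG6), which binds and inhibits the kinase domain of EGFR, rose with hypoxia in siControl from 145.4 ± 5.78 to 289.1 ± 18.6 CPM (log2 fold change 0.99, adjusted p = 3.92e-06) and in siARNT by 0.36 (adjusted p = 0.0248, lost in 7 of 20 alternatives). The difference of both changes was -0.63 (SE 0.10, adjusted p = 0.00605). LRIG3, of a family of membrane proteins that includes the EGFR antagonist LRIG1, went from 21.9 ± 1.03 to 34.0 ± 0.684 CPM with siARNT in normoxia (0.63, adjusted p = 0.000191) and from 17.9 ± 0.554 to 35.2 ± 3.24 CPM in hypoxia (0.98, adjusted p = 2.43e-06). CBLB, a ubiquitin ligase of the receptors, fell with siARNT in normoxia (-0.37, adjusted p = 0.00474), as did USP8, a deubiquitinase of endosomes (-0.36, adjusted p = 0.0296, lost in 4 of 19 alternatives). Both were smaller with the GC correction (-0.23 and -0.22). With hypoxia in siControl LRIG3 fell (-0.30, adjusted p = 0.0120, lost in 2 of 20 alternatives) and SOCS5, of the suppressors of cytokine signalling, rose (0.32, adjusted p = 0.0496, lost in 10 of 20). In hypoxia SOCS5 fell with siARNT (-0.54, adjusted p = 0.00324) and EPS15, an endocytic adaptor, rose (0.53, adjusted p = 0.00219). PTPRJ, a receptor-type phosphatase, rose with hypoxia in siARNT (0.31, adjusted p = 0.0189), a call lost in 7 of 20 alternatives.

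Target and feedback genes of ERK were called in 8, 1, 3, 9 and 1 of 15, beside the same shares of all genes. The list lay near those shares with siARNT in normoxia. It also lay near them with hypoxia in siARNT (6.67% beside 4.09%) and for the interaction (6.67% beside 4.69%). Of the 8 called with hypoxia in siControl 7 were higher, and with siARNT in hypoxia 5 were higher and 4 lower. FOS, an immediate early transcription factor, rose with hypoxia in siControl from 8.43 ± 0.742 to 30.6 ± 3.06 CPM (log2 fold change 1.86, adjusted p = 3.90e-06) and was at 9.88 ± 1.09 CPM in hypoxia siARNT (log2 fold change -1.63 from hypoxia siControl, adjusted p = 4.68e-06). Its interaction was -1.71 (SE 0.19, adjusted p = 0.000471). DUSP6, a phosphatase of ERK, rose with hypoxia in siControl (0.68, adjusted p = 3.18e-06) and in siARNT (0.43, adjusted p = 0.00168). DUSP4, a related phosphatase, fell with siARNT from 266.3 ± 3.49 to 172.6 ± 0.946 CPM in normoxia (-0.63, adjusted p = 1.03e-05) and from 307.5 ± 11.6 to 169.8 ± 6.13 CPM in hypoxia (-0.86, adjusted p = 3.00e-07). DUSP5, another phosphatase of ERK, at a mean of 1.29 CPM, fell with siARNT in normoxia (-0.70, adjusted p = 0.0265, lost in 3 of 19 alternatives). SPRY2, an inhibitor of the pathway, rose with siARNT in normoxia (0.41, adjusted p = 0.000527), and IER3 rose with hypoxia in siControl (0.63, adjusted p = 0.0155, lost in 2 of 20 alternatives) and fell with siARNT in hypoxia (-0.93, adjusted p = 0.00155). The median log2 fold changes of this list were 0.19 and -0.12 in the comparisons of hypoxia in siControl and siARNT in hypoxia, beside 0.02 for all tested genes in each.

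**Figure D5:**
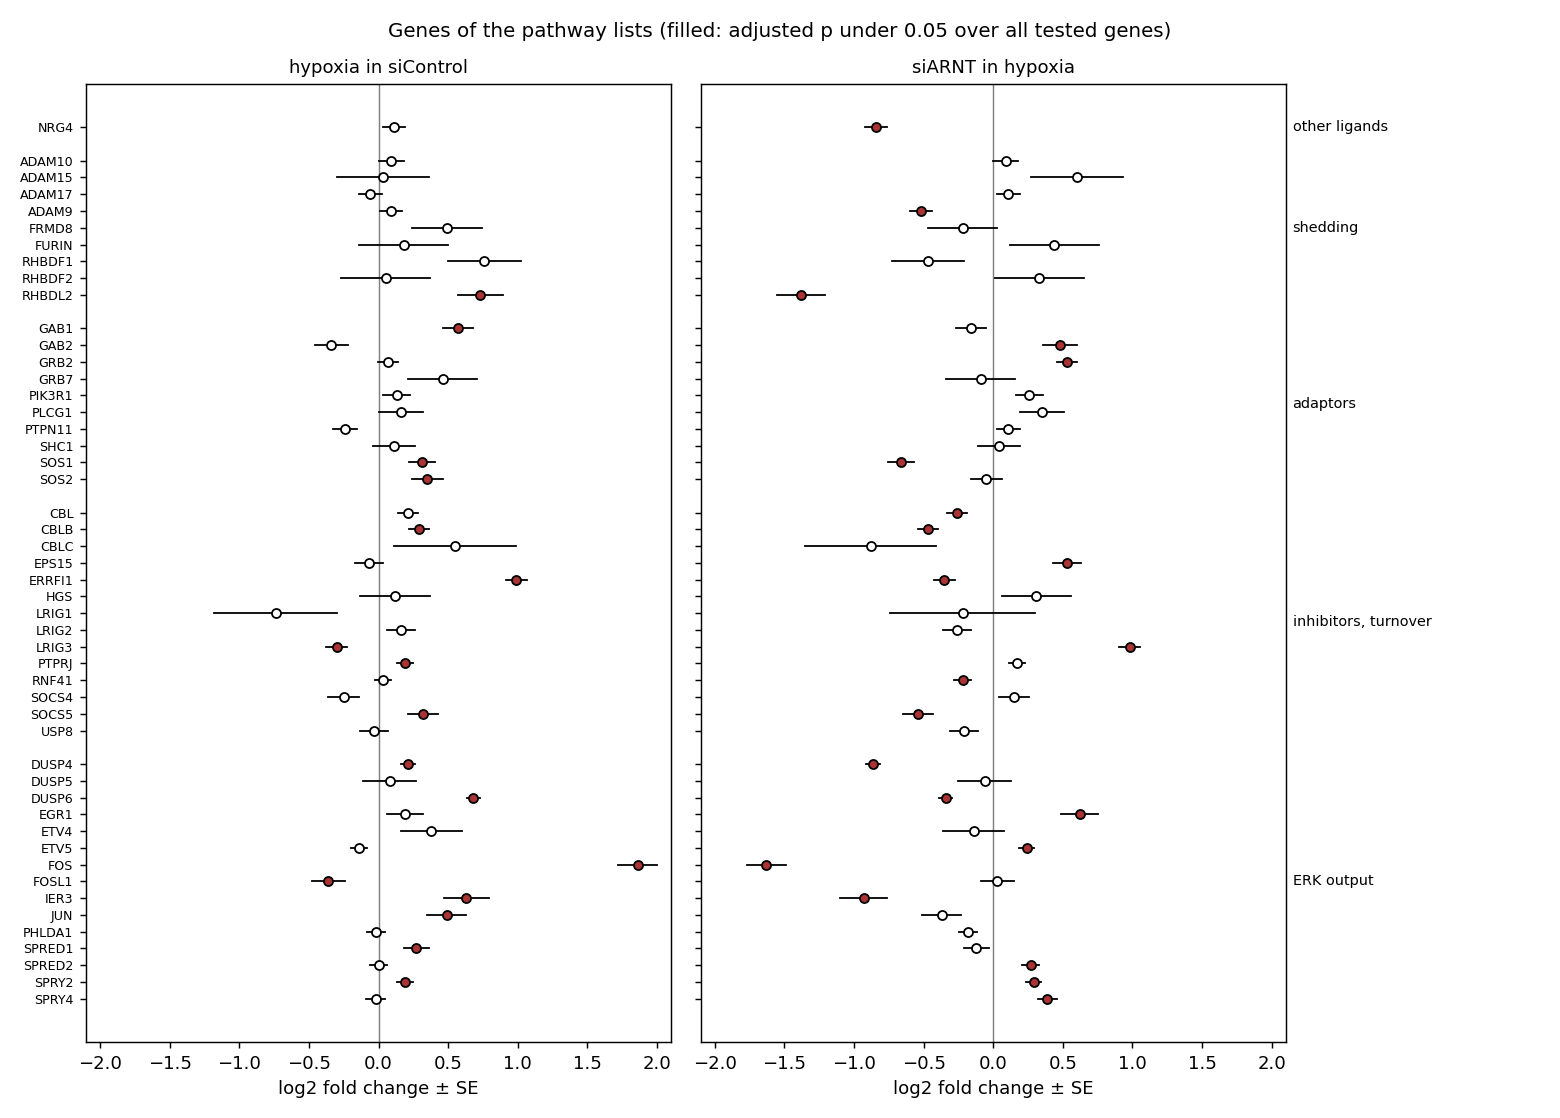
log2 fold changes ± SE (x axes) of the tested genes of the 5 pathway lists (y axis, grouped by list) with hypoxia in siControl (left) and with siARNT in hypoxia (right); filled points have an adjusted p under 0.05. FOS is the furthest from 0 in both, at 1.86 and -1.63, and ERRFI1 and DUSP6 are filled on both sides.

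The deposited splicing files listed 26 events in the 8 genes (7 in ERBB3, 6 each in EGFR and ERBB2, 4 in TGFA, 2 in AREG, 1 in EREG and 0 in HBEGF and BTC), of which 22 had at least 10 reads in every library. None of the 22 was called in any comparison by limma on log2 ratios of both forms, where the share of all 45856 tested events called was 0.0349% with hypoxia in siControl, 0.0414% with hypoxia in siARNT, 0.0196% and 0.0349% with siARNT in normoxia and in hypoxia, and 0.0371% for the interaction. At an unadjusted p under 0.05 there were 3 of the 22 with hypoxia in siARNT, beside 3056 of all 45856. There were 4 with siARNT in hypoxia, beside 3629, and 0 in the other 3 comparisons, beside 2295 to 3020. The unweighted test recovered few changes in simulated data. A fit weighted by read counts, added after the data were seen, called 35 to 170 events over all genes and 0 of the 22 (lowest adjusted p 0.0546). That lowest value was of an EGFR intron whose 10 exclusion reads all came from 1 library, hypoxia siARNT A. In 12 of the 22 the share of the inclusion form stayed at 85% or more in every library, and for 9 it stayed at 15% or less. The 135-base EGFR exon at 55214299 to 55214433 on chromosome 7 (positions as deposited, in a build that is not settled) was included in at least 99.3% of junction reads in every library, and the 153-base AREG exon that ends at the printed junction in at least 99.1%. An alternative 5' splice site of ERBB2 on chromosome 17 (37879878 to 37879913, 36 bases) was used in 8.49 ± 2.57% in normoxia siControl and 11.5 ± 2.25% in hypoxia siARNT (mean ± SD, n = 3), which overlapped. By library its use was 6.90, 6.82 and 6.45% in normoxia siARNT and 13.4, 8.99 and 12.1% in hypoxia siARNT, which did not overlap. This change was not called (adjusted p = 0.297 by the weighted fit). In the other comparisons between groups the libraries overlapped. The submitters' processing notes name GRCh38.p10, but the AREG junction printed above lies at 75316249 to 75318261 in the splicing files and at 74450532 to 74452544 in GRCh38, so this position is not one of GRCh38.

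EREG, AREG and BTC lie beside each other with EPGN on chromosome 4, where these 4 are the only protein-coding genes that lie between 74308470 and 74794523 (RefSeq, GRCh38.p14), a span of 486.1 kb. Their changes with siARNT in normoxia were -0.45 for EREG, -0.58 for AREG by junction reads and -0.61 for BTC, and in hypoxia -0.72, -0.56 and -0.34 in the same order. BTC, with 4 to 15 counts per library, was called in neither. The 250 bases before the start site were searched for the core that HIF and ARNT pairs bind, ACGTG or GCGTG on either strand, because EREG, AREG (by junction reads), TGFA, EGFR and ERBB3 were lower with siARNT. RefSeq windows matched 7 of the 8 genes, all but ERBB3, with 9 start sites. ACGTG was in 0 of the 9 windows (18.5% of 35116 RefSeq promoters hold it) and GCGTG was in 4 (32.2% of promoters), 1 each of EREG, AREG, TGFA and BTC. Windows of EREG, AREG, TGFA and EGFR are printed with matches in capitals, where CACGC is GCGTG on the other strand and EGFR has none. They are, in this order, chr4:74364895-74365144 (plus strand), chr4:74444886-74445135 (plus), chr2:70553447-70553696 (minus) and chr7:55018767-55019016 (plus), the third being the second of 2 TGFA starts.
EREG promoter: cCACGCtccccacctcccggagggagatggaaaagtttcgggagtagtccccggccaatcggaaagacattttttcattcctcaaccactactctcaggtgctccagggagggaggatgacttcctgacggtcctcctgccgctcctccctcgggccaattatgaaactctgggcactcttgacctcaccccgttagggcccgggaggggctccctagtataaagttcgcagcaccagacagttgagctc
AREG promoter: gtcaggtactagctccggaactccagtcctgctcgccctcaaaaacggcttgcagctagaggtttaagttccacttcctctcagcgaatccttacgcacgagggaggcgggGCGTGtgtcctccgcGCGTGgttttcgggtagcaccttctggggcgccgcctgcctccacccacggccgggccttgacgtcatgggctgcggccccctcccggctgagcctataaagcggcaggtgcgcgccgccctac
TGFA promoter, second start: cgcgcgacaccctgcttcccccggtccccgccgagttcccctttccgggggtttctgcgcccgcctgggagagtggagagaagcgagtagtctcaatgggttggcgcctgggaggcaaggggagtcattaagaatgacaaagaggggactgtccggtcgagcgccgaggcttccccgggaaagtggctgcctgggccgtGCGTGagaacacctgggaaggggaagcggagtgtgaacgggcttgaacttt
EGFR promoter, first start: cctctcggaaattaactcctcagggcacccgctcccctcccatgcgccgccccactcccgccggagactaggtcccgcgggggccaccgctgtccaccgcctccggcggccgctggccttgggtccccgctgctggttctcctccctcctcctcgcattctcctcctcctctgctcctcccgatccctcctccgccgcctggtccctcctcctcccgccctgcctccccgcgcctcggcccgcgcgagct
The printed windows of EREG and TGFA held 1 match each and that of AREG 2, and neither window of EGFR, the member with the largest fall in hypoxia, held any. A match describes these letters in these windows and was not tested as a binding site.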

How the data were processed

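Poly(A) RNA of 12 cultures was sequenced single-end from stranded libraries, per the labels' protocols. The deposited gene files hold counts, whole numbers of reads per Ensembl gene ID. The deposited splicing files hold junction read counts, a mean read coverage (signal) of introns and the share of inclusion as a fraction. The submitters' processing notes name Trimmomatic, STAR 2.4.2a and GRCh38.p10, with no role given, and the AREG junction position compared was not that of GRCh38. Lines that name no gene (22.71 to 25.2% of reads) were left out of library sizes. Symbols matched 51996 of 57820 IDs. The series-wide table held the same counts as the files of all 12 libraries and was not used further.

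The test for genes was edgeR 4.0.16 in R 4.3.3 (TMM scaling, filterByExpr, robust quasi-likelihood fit to all 12 libraries, 1 mean per group), and that for events limma 3.58.1 on log2((inclusion + 0.5)/(exclusion + 0.5)). Both tests were tried on simulated data, where the unweighted event test recovered few changes. A fit weighted by counts was added after the data were seen. CPM uses TMM scaling, and RPKM uses exon lengths of GENCODE 29, whose gene versions differ from those of the files. No 2 replicates agreed within sampling noise (chi-square over degrees of freedom 4.3 to 89.11 over 12 pairs). Letters were taken as pairing where the deviations of same-letter libraries all correlated above 0.1: normoxia with hypoxia siControl (0.51, 0.74 and 0.49) and normoxia siControl with siARNT (0.70, 0.88 and 0.39). In the latter, however, siControl A correlated best with siARNT C, and siControl C with siARNT A. Only B was closest to its own letter, so pairing by letter is not settled there. Normoxia siARNT with hypoxia siControl, which were not compared directly, also passed this limit (0.62, 0.83 and 0.6). Hypoxia siARNT did not pair with normoxia siARNT (0.91, -0.12 and -0.85). The part of GC content in these correlations was not tested. The 8 genes and all lists were chosen with earlier results of these data known. Genes named beside the 8 were ARNT and 3 hypoxia markers, up to 3 called genes with the largest change per list and comparison, and the 2 genes most alike in level to each member, among genes of at least 5 CPM. ADAM17, ADAM10, and the counts of untested genes were added after their values were seen. Alternatives were DESeq2 1.42.0, total count scaling, no filter on low counts, fewer libraries, blocks, a GC correction and leaving out each library.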

Additional observations from a re-analysis of the deposited data

Results flagged for a closer look

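The hypoxia change differed between siControl and siARNT, by the interaction test of edgeR (adjusted over all tested genes), for 4 of the genes named. For EGFR the difference was -0.32 on the log2 scale (adjusted p = 0.0381). The EGFR changes were 0.58 in siControl and 0.26 in siARNT, the second lost in 10 of 20 alternatives and at 0.14 by junction reads (adjusted p = 0.486). For FOS it was -1.71 (adjusted p = 0.000471), for ERRFI1 -0.63 (adjusted p = 0.00605) and for RHBDL2 -1.04 (adjusted p = 0.0308). The call of EGFR was lost in 12 of 19 alternatives, and that of RHBDL2 in 9 of 19 (adjusted p up to 0.0961). Those of FOS and ERRFI1 held in all 19.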

How the results depend on the processing

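The falls of TGFA, EGFR and ERBB3 with siARNT, and the rises of EGFR and ERBB3 with hypoxia in siControl, kept their direction and call in every alternative run on gene counts. Correction for GC content raised the number of genes called to 7378 with hypoxia in siControl, 3875 with hypoxia in siARNT, 5651 with siARNT in normoxia, 7944 with siARNT in hypoxia and 3322 for the interaction. With GC correction and the replicate block these were 7562, 4120, 5937, 8111 and 3527. Under either, 4 members were called with hypoxia in siControl, 4 with hypoxia in siARNT and 3 for the interaction. The cause was not tested.

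With hypoxia in siARNT, 22 genes and 0 members were called in a fit to the samples compared, 136 genes and 0 members with the transfected well as a replicate block, and 2 members with total count scaling (964 genes) or with the replicate letter as a block (862 genes, in place of 696). For the interaction, 1495 genes were called with total count scaling, 373 genes and 0 members with the block of siRNA and letter, and 0 members without a filter on low counts. With the letter as a block, siARNT in normoxia had 6 members called in place of 4 (4732 genes in place of 3431), and hypoxia in siControl 3 in place of 2 (4740 in place of 4299). Letters gave no consistent pairing with hypoxia siARNT.

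Leaving out 1 library at a time gave 2873 to 5242 genes and 2 to 4 members with hypoxia in siControl, 129 to 707 and 0 to 1 with hypoxia in siARNT, 1571 to 4148 and 3 to 5 with siARNT in normoxia, 3537 to 5847 and 4 to 5 with siARNT in hypoxia, and 272 to 1188 and 0 to 1 for the interaction. Called member splice events stayed at 0 throughout by the unweighted limma test. With all libraries that test called only 9 to 19 of 45856 events per comparison. Whether member splicing depended on single libraries was therefore not tested.

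Signs turned for AREG with siARNT in normoxia by junction reads (-0.58 in place of 0.74) and for TGFA (0.22, from few reads). Among values not called by either reading, junction reads also turned TGFA with hypoxia in siControl (0.20 in place of -0.06), AREG with hypoxia in siControl and siARNT (-0.04 and -0.02 in place of 0.80 and 0.06), and the interactions of EREG (0.24 in place of -0.28) and AREG (0.02 in place of -0.74). With GC correction, with or without the block, ADAM15 was at -0.21 with hypoxia in siControl, and SOS2 and FOS were at 0.13 and -0.31 with siARNT in normoxia. With scaling by total counts the median log2 value of all tested genes with siARNT in hypoxia was 0.104, and the share of higher genes among calls went from 49.6 to 63.8%, and from 53.9 to 65.8% with hypoxia in siARNT and 53.2 to 75.3% for the interaction. GC correction moved it from 41.2 to 52.0% with hypoxia in siControl. Of 40 values of named pathway genes, 27 kept their call in every alternative. Low counts limit BTC and the gene count of AREG.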
